A study of Mus musculus with 8 samples.

Results

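Alpha-defensins were followed across 3 gut segments through every row of the deposited table whose name began with DEFA or DEFCR, which gave 12 rows of 18131. The rows were chosen by name and not by value. Expression had been measured on Illumina bead arrays of cells sorted for green fluorescence from adult Ngn3-GFP mice, in which GFP marks cells where the endocrine fate gene Neurog3 (Ngn3) is or was recently active. The groups were gastric cells from the pyloric (antral) stomach (3 arrays), duodenal cells (3 arrays) and colonic cells (2 arrays). All 8 arrays carried the same genotype and the labels name no treatment; the titles call the cells enteroendocrine. The design text of the series speaks instead of RNA from the tissues, and the sources used here do not settle which holds; the sample labels are followed. The sources used here do not give the strain, the sex, whether animals were pooled or whether arrays of a segment came from different animals. The p-values therefore reflect array-to-array spread, perhaps only technical. Dissociation was not the same for each segment: stomach was held in EDTA for 2 h before Accutase, whereas duodenal and colonic tissue had 30 min of EDTA before dispase.

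Alpha-defensins are small cationic peptides that kill bacteria by disrupting their membranes. In mice the intestinal ones are called cryptdins and are stored in the granules of Paneth cells, which sit at the base of small intestinal crypts, whereas the normal mouse stomach and colon hold few or none of these cells. The precursors are cut to active peptides by the metalloproteinase Mmp7 in mice. The cryptdin-related sequences (CRS) share the precursor region with cryptdins but have another spacing of cysteines in the mature peptide. Wnt signalling through TCF/LEF factors at the crypt base drives Paneth cell genes, cryptdin genes among them.

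The genes lie in 1 cluster of near-identical copies, and the annotation (GRCm38.p6) lists 29 protein-coding genes of this family on chromosome 8. Of the 12 rows, 7 matched a current gene. Among them, DEFCR21 is Defa21, DEFCR-RS7 is Defa31 (a CRS4C gene), DEFCR5 is Defa5, DEFCR26 is Defa26 and DEFA-PS1 is the transcribed pseudogene Defa-ps1. DEFCR20 is an older name of both Defa20 and Defa32. DEFA1, DEFCR4, DEFCR6, DEFCR-RS10 and DEFCR-RS12 keep the file's names. Each row is described on its own, but probes of such similar transcripts may share signal; the probe sequences were not used here, and the sources do not tell how probes of a symbol were combined.

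Start-site windows of 300 bases (250 before and 50 after the annotated start, RefSeq, GRCm38.p6) were at hand for 16 annotated family genes, of which 4 were matched by 3 of the rows. These 4 are shown because the row of Defa31 was high in colonic cells alone while the rows of the other genes were high in duodenal and colonic cells. Capitals mark ATCAAAG, which is the TCF/LEF motif CTTTGAT on the opposite strand, and the TATA box TATAAA.
Defa31 (row DEFCR-RS7), chr8:21191323-21191622, plus strand: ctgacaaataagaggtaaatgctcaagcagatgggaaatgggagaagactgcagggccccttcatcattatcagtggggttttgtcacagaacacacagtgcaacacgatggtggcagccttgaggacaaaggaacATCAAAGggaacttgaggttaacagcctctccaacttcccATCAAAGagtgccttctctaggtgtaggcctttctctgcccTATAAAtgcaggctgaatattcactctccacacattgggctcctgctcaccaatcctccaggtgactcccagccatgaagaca
Defa21 (row DEFCR21), chr8:21025295-21025594, plus strand: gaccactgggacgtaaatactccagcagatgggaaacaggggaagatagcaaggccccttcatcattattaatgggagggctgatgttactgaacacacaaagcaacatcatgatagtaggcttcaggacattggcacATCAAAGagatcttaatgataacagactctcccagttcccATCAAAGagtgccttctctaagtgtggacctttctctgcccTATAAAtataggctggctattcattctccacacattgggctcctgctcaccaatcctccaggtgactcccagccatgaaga
Defa20 (row DEFCR20), chr8:21509008-21509307, plus strand: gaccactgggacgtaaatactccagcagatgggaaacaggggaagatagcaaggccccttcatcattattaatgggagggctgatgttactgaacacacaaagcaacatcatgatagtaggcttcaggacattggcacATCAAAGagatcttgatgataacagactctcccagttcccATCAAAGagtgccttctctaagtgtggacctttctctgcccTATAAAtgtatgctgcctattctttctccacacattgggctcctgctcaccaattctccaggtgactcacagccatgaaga
Defa32 (row DEFCR20), chr8:21528780-21529079, plus strand: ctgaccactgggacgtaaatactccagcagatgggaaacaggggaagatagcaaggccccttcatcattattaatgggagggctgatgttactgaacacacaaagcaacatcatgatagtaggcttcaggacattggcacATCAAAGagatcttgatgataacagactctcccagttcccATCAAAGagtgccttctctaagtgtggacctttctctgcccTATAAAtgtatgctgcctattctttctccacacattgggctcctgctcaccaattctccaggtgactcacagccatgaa

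All 4 windows held CTTTGAT at 2 places on the opposite strand and TATAAA at 1 place on the same strand, with no overlap between motifs. In Defa31 the TCF/LEF letters began at -114 and -74 and the TATA letters at -33 from the start site. In Defa21 they began at -112 and -72 and the TATA letters at -31. Searched on both strands, CTTTGAT was found in 13 of 16 windows of annotated family genes and in 3.73% of all 32851 windows of that length, and at least 2 matches in 9 of 16 and in 0.1%. TATAAA was found in 15 of 16 and in 13.6%. The aligned bases of the Defa20 and Defa32 windows were 100% identical. Defa21 was 97.7% identical to Defa20, and Defa31 was 84.1% identical to Defa21 and 83.5% to Defa20. The 4 windows shown thus belong to the 9 with at least 2 TCF/LEF matches. These matches describe letters and not bound sites.

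Values are on a log2 scale that ran from 6.22 to 15.49 and was the same on every array, as after quantile normalization, so a value near 15.49 has little room to rise. As a reference for background, 1083 olfactory and vomeronasal receptor rows had a median of 6.59, and their 95th percentile, 6.81, served as the background limit. Where the dimmer group's mean lay under that limit the ratio is a bound, written as at least, and where both groups lay under it no ratio is given. A row was called where the Benjamini-Hochberg adjusted p of limma over all 18131 rows was under 0.05. Arrays of 1 segment correlated at r = 0.997 to 0.998 across rows, and arrays of different segments at 0.901 to 0.954.

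Cells of all 3 segments gave alpha-defensin signal far above background. Of the 12 rows, 7 were above the limit on every gastric array, 9 on every duodenal array and 12 on every colonic array. The limit is a low bar, because the median over all rows was 6.90 on each array and so above it. The gastric count alone therefore does not set these rows apart. What stood far above background was the level of some rows, such as DEFCR6 at 13.40 to 13.47 on the gastric arrays. The rows followed 3 main patterns. DEFA1, DEFCR6, DEFCR5, DEFCR21, DEFCR26 and DEFCR20 were high in both duodenal and colonic cells and lower in gastric cells, DEFCR4 stepped up along all 3 segments, and DEFCR-RS7, DEFCR-RS10 and DEFCR-RS12 were above the limit in colonic cells while their gastric and duodenal means lay under it.

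**Figure D1:**
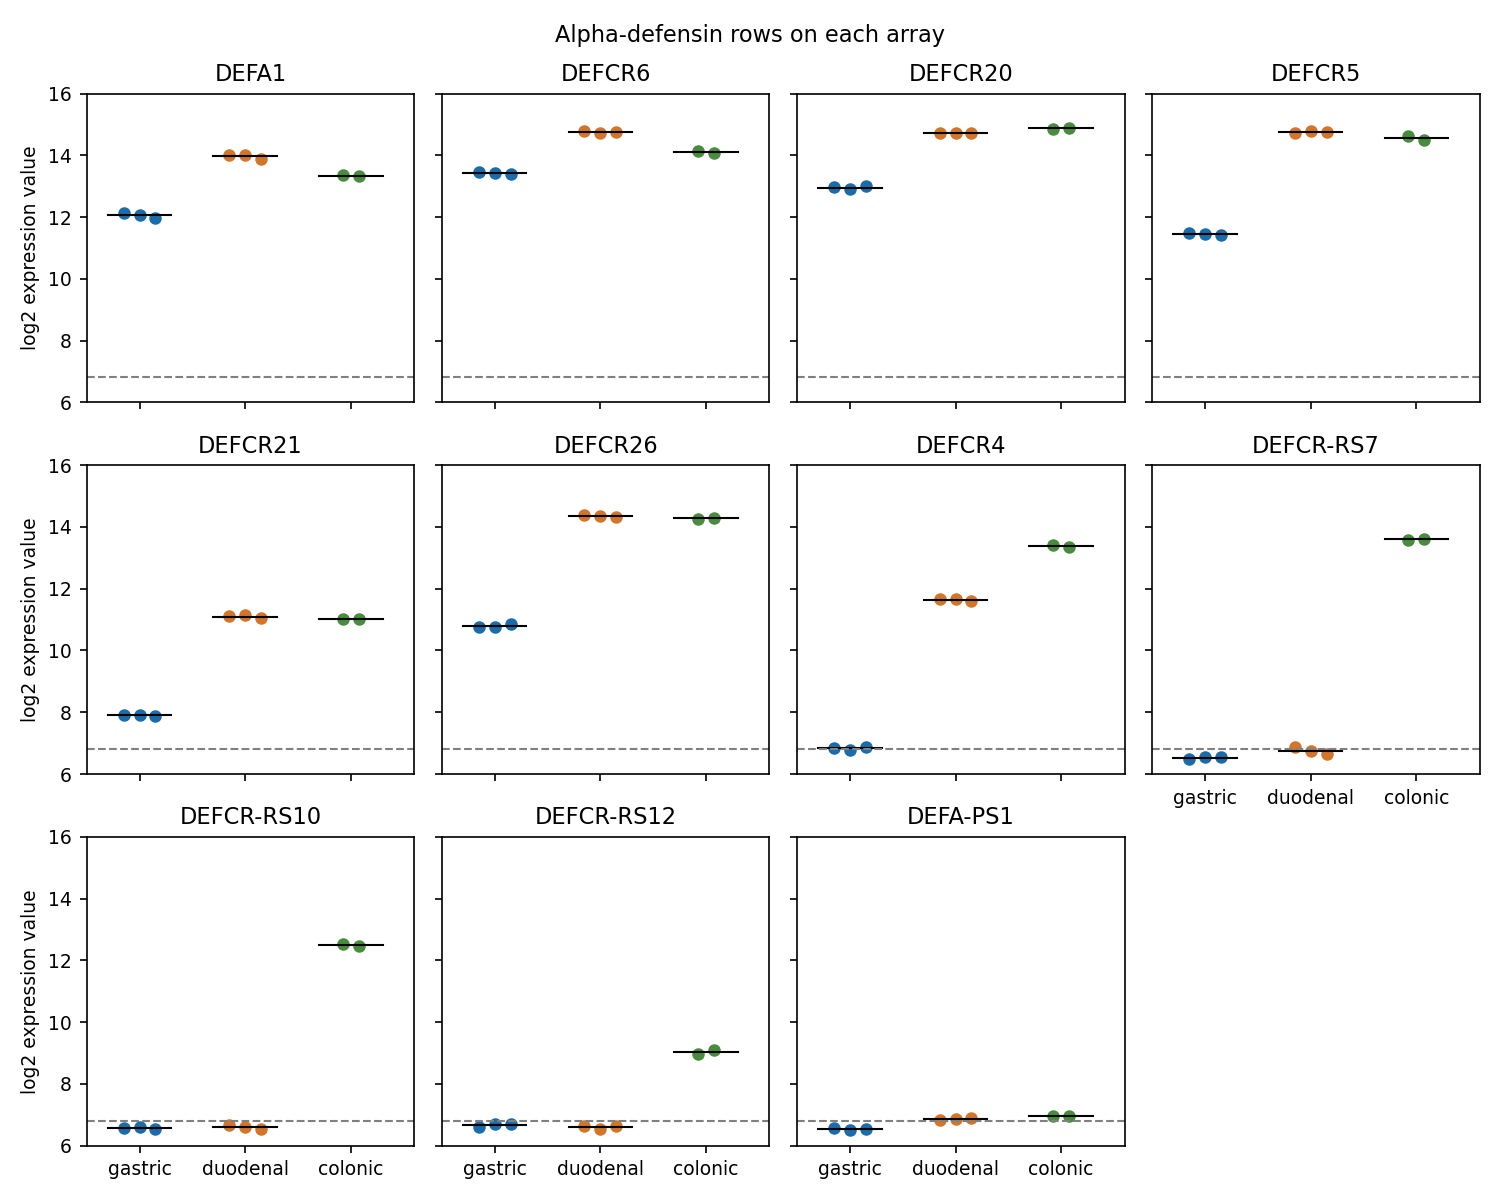
Log2 expression value (vertical axis) of 11 alpha-defensin rows on the 3 gastric, 3 duodenal and 2 colonic arrays. Points are arrays, black bars are group means, and the dashed line is the background limit of 6.81; the DEFCR-RS7 points stand near 13.60 in colonic cells and near the line in gastric and duodenal cells.

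Among the rows named DEFA or DEFCR without RS, DEFA1 read 12.14, 12.06 and 11.98 on the gastric arrays, 13.9997, 13.9997 and 13.89 on the duodenal arrays, and 13.36 and 13.32 on the colonic arrays. DEFCR6 read 13.47, 13.42 and 13.40 on the gastric arrays, 14.79, 14.72 and 14.77 on the duodenal arrays, and 14.15 and 14.08 on the colonic arrays. In both rows the 3 groups were separate, with the duodenum highest and the stomach lowest. DEFA1 was 3.74-fold lower in gastric than duodenal cells (log2 difference -1.90, SE 0.05, adjusted p = 1.94e-13), 2.43-fold lower in gastric than colonic cells (log2 difference -1.28, SE 0.06, adjusted p = 9.56e-11) and 1.54-fold higher in duodenal than colonic cells (log2 difference 0.62, SE 0.06, adjusted p = 7.49e-07). DEFCR6 was 2.52-fold lower in gastric than duodenal cells, 1.61-fold lower in gastric than colonic cells and 1.56-fold higher in duodenal than colonic cells (adjusted p = 2.64e-12, 2.71e-08 and 1.23e-07). These 2 rows had the largest duodenal excess over the colon of the 12.

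DEFCR5, the row of Defa5, read 11.48, 11.46 and 11.42 on the gastric arrays, 14.71, 14.80 and 14.74 on the duodenal arrays, and 14.62 and 14.50 on the colonic arrays. DEFCR26, the row of Defa26, read 10.76, 10.77 and 10.85 on the gastric arrays, 14.38, 14.35 and 14.33 on the duodenal arrays, and 14.26 and 14.30 on the colonic arrays. DEFCR21, the row of Defa21, read 7.90, 7.92 and 7.87 on the gastric arrays, 11.11, 11.13 and 11.05 on the duodenal arrays, and 11.02 and 11.01 on the colonic arrays. All 3 stood about the same distance lower in gastric cells and close together in the intestinal groups. Against duodenal cells the gastric values were 9.82-fold lower for DEFCR5, 11.8-fold lower for DEFCR26 and 9.18-fold lower for DEFCR21 (adjusted p = 2.13e-16, 5.15e-17 and 1.12e-16). Against colonic cells they were 8.62-fold, 11.2-fold and 8.68-fold lower (adjusted p = 1.32e-15, 2.03e-16 and 4.67e-16). Between duodenal and colonic cells DEFCR26 and DEFCR21 did not pass the test, with log2 differences of 0.08 (95% interval -0.04 to 0.19) and 0.08 (95% interval -0.03 to 0.19). DEFCR5 was called at a log2 difference of 0.19 (SE 0.06, adjusted p = 0.0156), but its adjusted p was 0.198 without colonic replicate 2 and 0.0581 without duodenal replicate 2 (0.00614 to 0.198 over 15 alternatives).

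DEFCR20, whose name belongs to both Defa20 and Defa32, read 12.98, 12.89 and 12.99 on the gastric arrays, 14.72, 14.71 and 14.73 on the duodenal arrays, and 14.86 and 14.89 on the colonic arrays. The gastric arrays were lowest, and the duodenal and colonic arrays did not overlap. The row was 3.40-fold lower in gastric than duodenal cells and 3.79-fold lower in gastric than colonic cells (adjusted p = 8.23e-14 and 1.34e-13). The duodenal to colonic step was 1.11-fold (log2 difference -0.16, SE 0.05, adjusted p = 0.0291). That call was lost without colonic replicate 1 (adjusted p = 0.0837) or 2 (0.139) and without duodenal replicate 1 (0.0579) or 2 (0.0718), in a range of 0.0113 to 0.139 over 15 alternatives.

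DEFCR4 read 6.86, 6.78 and 6.87 on the gastric arrays, 11.65, 11.66 and 11.60 on the duodenal arrays, and 13.42 and 13.35 on the colonic arrays. Its gastric arrays were at the background limit, 1 of them under it, and the colonic arrays were above all duodenal arrays. It was 27.9-fold lower in gastric than duodenal cells (log2 difference -4.80, SE 0.05, adjusted p = 2.75e-18), 93.5-fold lower in gastric than colonic cells (log2 difference -6.55, SE 0.05, adjusted p = 2.65e-19) and 3.36-fold lower in duodenal than colonic cells (log2 difference -1.75, SE 0.05, adjusted p = 1.35e-12). With the 99th percentile of the receptor rows (6.96) as the limit, the gastric ratios of DEFCR4 are bounds, at least 25.5-fold and at least 85.7-fold lower. It was the row with the largest gastric to duodenal difference of the 12.

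In DEFCR-RS7, DEFCR-RS10 and DEFCR-RS12 the signal was in colonic cells. DEFCR-RS7 (Defa31) read 6.49, 6.57 and 6.54 on the gastric arrays, 6.88, 6.73 and 6.66 on the duodenal arrays, and 13.57 and 13.62 on the colonic arrays. DEFCR-RS10 read 6.57, 6.59 and 6.55 on the gastric arrays, 6.68, 6.59 and 6.54 on the duodenal arrays, and 12.54 and 12.46 on the colonic arrays. DEFCR-RS12 read 6.62, 6.69 and 6.71 on the gastric arrays, 6.63, 6.53 and 6.64 on the duodenal arrays, and 8.97 and 9.08 on the colonic arrays. In all 3 the colonic arrays lay far above every gastric and duodenal array, and of the 18 gastric and duodenal readings only that of DEFCR-RS7 on duodenal replicate 1 was over the limit.

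Compared with colonic cells, DEFCR-RS7 was at least 110-fold lower in gastric cells and at least 108-fold lower in duodenal cells (log2 differences -7.07 and -6.84, SE 0.06 each, adjusted p = 9.39e-19 and 4e-18). DEFCR-RS10 was at least 51.5-fold lower in both gastric and duodenal cells (log2 differences -5.93 and -5.90, adjusted p = 1.35e-18 and 4e-18). DEFCR-RS12 was at least 4.64-fold lower in both (log2 differences -2.36 and -2.43, adjusted p = 5.42e-14 and 8.81e-14). Between gastric and duodenal cells, both under the limit, DEFCR-RS10 and DEFCR-RS12 did not pass the test (log2 differences -0.03, 95% interval -0.14 to 0.08, and 0.07, 95% interval -0.04 to 0.18). DEFCR-RS7 was called there at a log2 difference of -0.23 (adjusted p = 0.00389), between means of 6.53 and 6.76 that both lay under the limit. The start-site window of Defa31 printed above held the same motif letters as that of Defa21, whose row was not called between duodenal and colonic cells. Any link between these letters and the values was not tested.

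DEFA-PS1, the row of the pseudogene Defa-ps1, read 6.57, 6.51 and 6.53 on the gastric arrays, 6.82, 6.87 and 6.88 on the duodenal arrays, and 6.97 on both colonic arrays. It stayed close to background everywhere. It was called lower in gastric than duodenal cells (log2 difference -0.32, adjusted p = 2.11e-05) and lower in gastric than colonic cells (log2 difference -0.43, adjusted p = 3.6e-06), but above the limit these amount to at least 1.03-fold and at least 1.11-fold. Duodenal and colonic cells did not pass the test (log2 difference -0.11, adjusted p = 0.114).

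The question of each comparison is how GFP-positive cells of 2 segments differ. In gastric against duodenal cells, 10 of the 12 rows were called lower and none higher, where 46.6% of all rows were called, 23.9% lower and 22.7% higher. The called rows included DEFA1, DEFCR6, DEFCR5, DEFCR21, DEFCR26, DEFCR20 and DEFCR4, and also DEFCR-RS7 and DEFA-PS1 near background. At 2-fold or more, 8 rows were called, all lower, where 7.77% of all rows were called and 3.7% were lower. The median log2 difference of the 12 rows was -1.58 and that of all rows -0.01.

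In gastric against colonic cells all 12 rows were called lower, where 44.1% of all rows were called, 23.9% lower and 20.2% higher. The log2 differences ran from -7.07 for DEFCR-RS7 to -0.43 for DEFA-PS1, with a median of -2.73, against -0.02 for all rows. At 2-fold or more, 10 rows were called, all lower, where 7.41% of all rows were called and 3.39% were lower, and DEFCR6 and DEFA-PS1 were the 2 that were not. This comparison shares its gastric arrays with the one above and its colonic arrays with the one below.

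In duodenal against colonic cells the rows went both ways, and 8 of 12 were called, where 34.2% of all rows were. DEFCR-RS7, DEFCR-RS10, DEFCR-RS12, DEFCR4 and DEFCR20 were called lower in duodenal cells, 5 of 12, where 18.2% of all rows were called lower. DEFA1, DEFCR6 and DEFCR5 were called higher, 3 of 12, where 16% of all rows were called higher. Among the rows that did not pass the test were DEFCR21, DEFCR26 and DEFA-PS1. At 2-fold or more, 4 rows were called, all lower, where 3.56% of all rows were called and 1.54% were lower. The median log2 difference was -0.02 for the 12 rows and -0.01 for all rows.

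**Figure D2:**
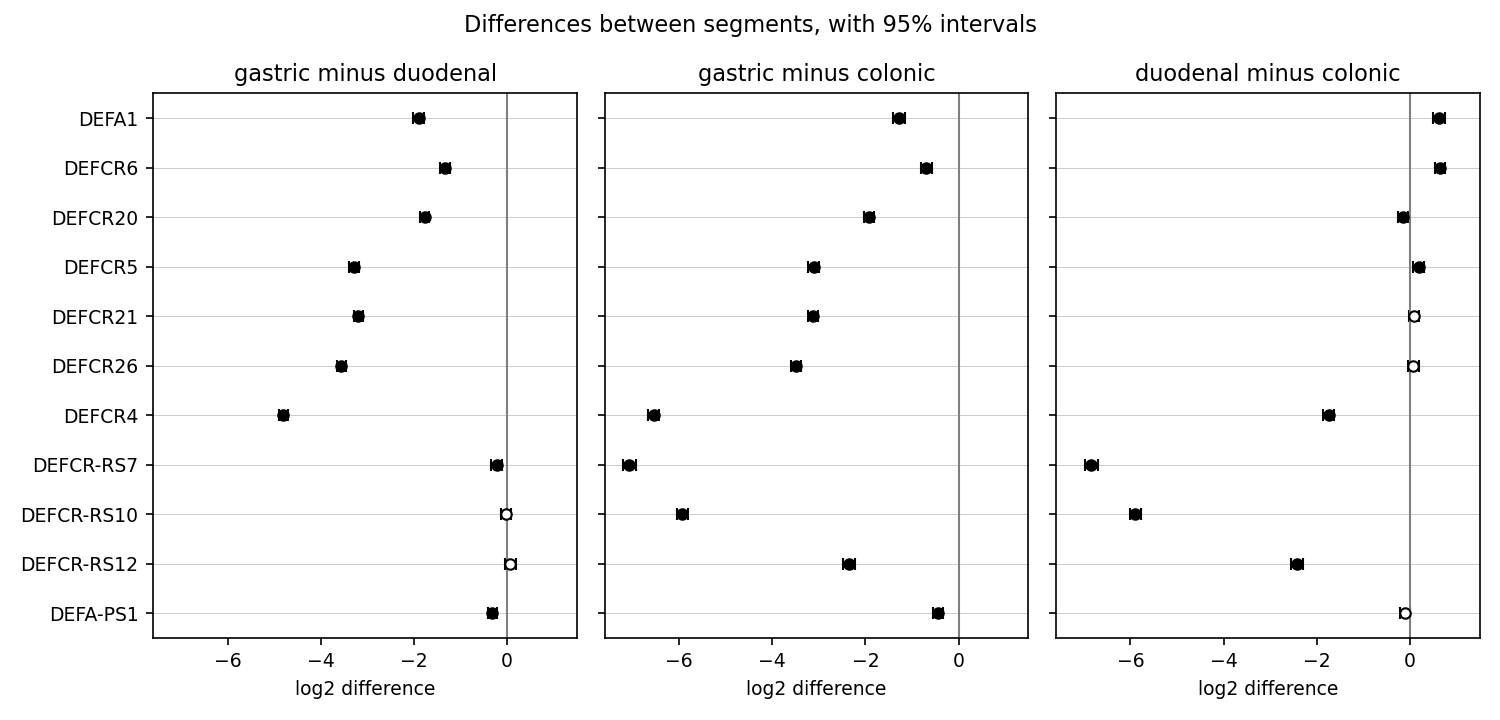
Log2 difference (horizontal axis, with 95% intervals from limma) of 11 alpha-defensin rows in gastric minus duodenal, gastric minus colonic and duodenal minus colonic cells. Filled points were called and open points were not; values under 0 are lower in the first group, and DEFCR-RS7 stands at -7.07 and -6.84 in the comparisons with colonic cells.

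Genes that process or regulate cryptdins were also read from a list of 34, of which 30 had a row. In gastric against duodenal cells 12 were called lower and 10 higher, in gastric against colonic cells 17 lower and 8 higher, and in duodenal against colonic cells 20 lower and 1 higher. Mmp7, the processing protease, stood at 8.74 ± 0.07 (SD, n = 3) in gastric, 10.19 ± 0.04 (SD, n = 3) in duodenal and 10.88 ± 0.07 (SD, n = 2) in colonic cells, 2.72-fold lower in gastric than duodenal cells and 1.61-fold lower in duodenal than colonic cells (adjusted p = 3.65e-12 and 1.81e-07). The trypsinogen genes Prss2 and Try4, whose human relatives process Paneth defensins, were 2.23-fold and 2.32-fold lower in duodenal than colonic cells (adjusted p = 1.11e-08 and 1.14e-09). Mmp7, Prss2 and Try4, picked from that list, thus followed the same order of segments as DEFCR4. The name of the Try4 row matched both Prss3 and Try4. A separate row, PRSS3, stood at 6.64, 6.72 and 7.05 in gastric, duodenal and colonic cells. PRSS3 was not called between gastric and duodenal cells.

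Regulators of Paneth and secretory cells did not move one way between gastric and duodenal cells. Gfi1 and Spdef, secretory lineage factors, were 3.79-fold and 2.22-fold lower in gastric than duodenal cells (adjusted p = 5.61e-13 and 3.13e-10). Fzd5, a Wnt receptor gene needed for Paneth cell maturation, was 1.57-fold lower (adjusted p = 6.34e-09), and Tcf7l2, a TCF factor of the intestinal epithelium, 1.26-fold lower (adjusted p = 0.000172). Sox9, which is needed for Paneth cells to form, was 2.89-fold higher in gastric than duodenal cells (adjusted p = 2.98e-11) and 1.61-fold lower in duodenal than colonic cells (adjusted p = 2.44e-06). Tcf4, which is a separate gene from the TCF factor Tcf7l2, and Stat3 were also called higher in gastric than duodenal cells (log2 differences 1.36 and 0.81). Atoh1 was under the background limit in all 3 groups.

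Other Paneth cell products were divided in each comparison. Of 27 listed genes without alpha-defensins, 18 had a row. In gastric against duodenal cells 11 were called lower and 5 higher, in gastric against colonic cells 12 lower and 4 higher, and in duodenal against colonic cells 6 lower and 10 higher. The mean log2 value of the list ran from 9.73 to 9.74 over the gastric arrays, from 10.74 to 10.77 over the duodenal arrays and from 10.89 to 10.90 over the colonic arrays. Ang2 and Sntb1 were under the background limit in all 3 groups. In bulk samples like these, fewer cells of a type and less RNA per cell cannot be told apart.

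The lysozyme gene Lyz1 stood at 11.23 ± 0.03 (SD, n = 3) in gastric, 13.52 ± 0.03 (SD, n = 3) in duodenal and 12.68 ± 0.09 (SD, n = 2) in colonic cells, which is the order of segments of DEFA1 and DEFCR6. The angiogenin gene Ang4, the intelectin gene Itln1 and the lectin gene Reg3a shared that order, as members picked from a divided list, and in duodenal over colonic cells Lyz1 was 1.79-fold, Ang4 2.78-fold, Itln1 1.41-fold and Reg3a 1.40-fold higher (adjusted p = 9.75e-09, 1.33e-10, 0.000137 and 4.62e-06). The phospholipase gene Pla2g2a, the lectin gene Reg3g and the pentraxin gene Mptx1 were instead 3.29-fold, 5.28-fold and 9.13-fold lower in duodenal than colonic cells (adjusted p = 3.01e-11, 3.84e-14 and 6.58e-14). Mptx1 stood at 6.85 ± 0.02 (SD, n = 3) in gastric, 10.42 ± 0.07 (SD, n = 3) in duodenal and 13.61 ± 0.21 (SD, n = 2) in colonic cells, the order seen for DEFCR4. Pla2g2a was higher in gastric than duodenal cells (log2 difference 0.44, adjusted p = 1.89e-05). Other members of the list were highest in the stomach. Habp2 stood at 11.04 in gastric, 8.75 in duodenal and 7.78 in colonic cells, and the colipase gene Clps at 14.77, 13.50 and 10.48, and both were called higher in gastric than duodenal cells (log2 differences 2.29 and 1.27, adjusted p = 1.05e-14 and 1.16e-11). Lyz2 and Nupr1 were also called higher in gastric than duodenal cells (log2 differences 0.79 and 0.14, adjusted p = 2.49e-09 and 0.012).

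**Figure D3:**
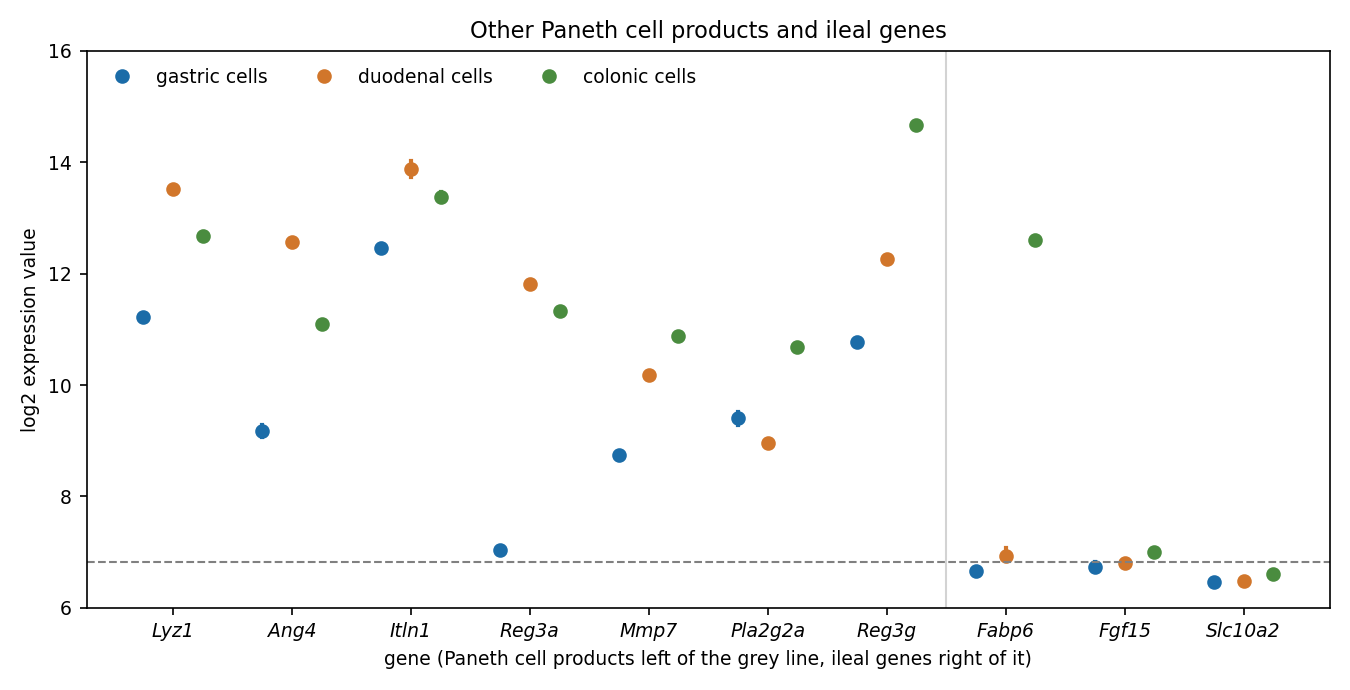
Log2 expression value (vertical axis) of 7 Paneth cell products and 3 ileal genes in gastric, duodenal and colonic cells. Points are group means, vertical lines the range of the 3, 3 and 2 arrays, and the dashed line is the background limit of 6.81; Lyz1 is highest in duodenal cells at 13.52, and Fabp6 stands apart in colonic cells at 12.61.

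Genes of the ileum, where mouse Paneth cells are most abundant, were read beside the rows that were high in colonic cells alone. Of 14 listed genes 11 had a row; 4 were called lower and 4 higher in duodenal against colonic cells. The mean log2 value of the list ran from 7.37 to 7.41 over the gastric arrays, from 9.08 to 9.13 over the duodenal arrays and from 9.29 to 9.32 over the colonic arrays. Fabp6, the ileal bile acid binding protein gene, stood at 6.66 ± 0.07 (SD, n = 3) in gastric, 6.92 ± 0.13 (SD, n = 3) in duodenal and 12.61 ± 0.10 (SD, n = 2) in colonic cells, and was 51.3-fold lower in duodenal than colonic cells (adjusted p = 7.9e-17). With the 99th percentile of the receptor rows (6.96) as the limit, that Fabp6 ratio is a bound, at least 48.8-fold. Slc10a2, the ileal bile acid transporter gene, was under the limit in all 3 groups (6.46, 6.47 and 6.61), and Fgf15, an ileal hormone gene, stood at 6.74, 6.80 and 7.004. The bile acid exporter gene Slc51a (row OSTA) was at 11.78 in duodenal and 11.68 in colonic cells. Thus 1 of these ileal genes, Fabp6, was like DEFCR-RS7 in standing far higher in colonic cells, and Slc10a2, Fgf15 and Slc51a were not; the part of ileal cells or RNA in the colonic values was not tested.

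Markers of other cells moved as well. The enteroendocrine list, which checks the label of the cells, was called higher in gastric than duodenal cells for 15 of 15 genes and higher in duodenal than colonic cells for 13 of 15, opposite to the alpha-defensin rows called between gastric and duodenal cells. Its mean log2 value ran from 10.57 to 10.64 over the gastric arrays and from 8.51 to 8.56 over the duodenal arrays, and was 7.46 on both colonic arrays. Neurog3 itself was at 13.03, 9.74 and 8.73 in gastric, duodenal and colonic cells, and the granin gene Chga at 13.13, 10.07 and 8.40. Pax6 was among the genes under the limit in every group, and Pcsk1 and Pcsk2 were under it in colonic cells. Of 12 colonocyte genes, 8 were called lower and 1 higher in duodenal against colonic cells, with Cyp2c55 7.89-fold and Sycn 8.17-fold lower. Their mean log2 value ran from 7.17 to 7.21 over the gastric arrays, from 8.005 to 8.04 over the duodenal arrays and from 9.08 to 9.15 over the colonic arrays, with Slc37a2 and Hoxb13 under the limit in every group. Of the leukocyte list, 9 of 12 genes were under the limit in gastric, 7 in duodenal and 9 in colonic cells, and the neutrophil genes Mpo, Ngp, Camp, S100a8 and S100a9 were under it in every group. Other genes of that list did move. Cd74, which serves antigen presentation, stood at 8.64 in gastric, 9.83 in duodenal and 12.96 in colonic cells, and was lower in gastric and duodenal than colonic cells (log2 differences -4.33 and -3.13, adjusted p = 4.35e-17 and 3.45e-15), the direction of DEFCR-RS7, DEFCR-RS10 and DEFCR-RS12. The T cell genes Cd3g and Cd3e were highest in duodenal cells, Cd3g at 6.60, 8.85 and 6.62 and Cd3e at 6.77, 8.02 and 6.68 in gastric, duodenal and colonic cells. Ltf, a neutrophil granule gene, stood just above the limit at 6.85, 7.29 and 7.12. The labels name no Paneth cell sort, and the part of other cells in the alpha-defensin signal was not tested.

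Goblet cell genes gave 7 of 9 called lower and 1 higher in gastric against duodenal cells, and 4 lower and 2 higher in duodenal against colonic cells. The mean log2 value of the goblet list ran from 11.42 to 11.44 over the gastric arrays. It ran from 12.32 to 12.34 over the duodenal arrays and from 12.92 to 12.95 over the colonic arrays. In each group this lay above the mean of the enteroendocrine list. The lists hold different genes, and the part of goblet cells was not tested. Enterocyte genes were called higher in duodenal than colonic cells for 7 of 9 and lower for none. DEFA1, DEFCR6 and DEFCR5 were called in that direction, and DEFCR-RS7, DEFCR-RS10, DEFCR-RS12, DEFCR4 and DEFCR20 in the other. Crypt stem cell genes were divided, with 1 of 7 lower and 3 higher in gastric than duodenal cells, and 2 lower and 2 higher in duodenal than colonic cells.

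Beta-defensins, the other defensin family of mice, made a contrast. Of 34 rows, 33 were under the background limit in gastric cells, 33 in duodenal cells and 32 in colonic cells. In gastric against duodenal cells 2 were called lower and 2 higher, in gastric against colonic cells 4 lower and none higher, and in duodenal against colonic cells 4 lower and none higher. DEFB37 stood at 6.59 ± 0.08 (SD, n = 3) in gastric, 6.89 ± 0.01 (SD, n = 3) in duodenal and 8.47 ± 0.01 (SD, n = 2) in colonic cells, and was 2.99-fold lower in duodenal than colonic cells (adjusted p = 8.64e-12). The name DEFB37 matched both Defb37 and Defb50. A separate row, DEFB50, was under the limit at 6.72, 6.59 and 6.60 in gastric, duodenal and colonic cells.

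Likeness of pattern was measured as the root mean square difference over the 8 arrays after each row was centred on the mean of its 3 group means. The nearest rows given here were looked up after the values were seen. DEFCR26 was nearest to Isx, a homeobox gene of the intestine, at 0.055, and DEFCR5 and DEFCR21 to Clrn3 at 0.13 and 0.15. DEFCR-RS10 was nearest to AY761185 at 0.14, to Retnlb, a goblet cell gene, at 0.14 and to Fabp6 at 0.15. AY761185 is annotated as the protein-coding gene next to Defa21, and stood at 6.59 in gastric, 6.70 in duodenal and 12.30 in colonic cells. DEFCR-RS7 was nearest to LOC100044289, a row with no current gene, at 0.22, which stood at 6.58, 6.73 and 14.06.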

How the data were processed

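The deposited values were taken as log2 expression values, 1 row per symbol for 8 arrays; base 2 was inferred from the range and is stated nowhere. The authors used GenomeStudio, lumi and limma, per the submitters' processing notes, without versions or parameters. Per the labels' protocols, TRIzol RNA became biotinylated cRNA (Ambion TotalPrep). Sorted columns agreed to within 0.0043. No detection p-values were at hand, and the number of arrays limits the precision.

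Groups came from the sample titles. With limma 3.58.1 in R 4.3.3, all 8 arrays entered a single model holding a mean for each segment and no covariate, with empirical Bayes moderation. Intervals are at 95% from the moderated fit. The fit was tested on simulated data. At-least ratios use, per dim array, the higher of 6.81 and the value itself. The rows were all those named DEFA or DEFCR; counts cover all 12, of which 1 is not reported singly here. Other rows came from lists or were looked up after the values were seen (Isx, Clrn3, Retnlb beside DEFCR-RS10, AY761185, LOC100044289, DEFB37). Members, lists and tests were chosen with earlier results of these data known. Names were matched through the RefSeq table of GRCm38.p6. Alternatives tried were median centring, a repeated quantile normalization, leaving out dim rows, trend and robust variance, array weights, a replicate block, only the compared groups, each array left out, at least 2-fold and a background limit at the 99th percentile. Python 3.11.15, pandas 2.3.3 and Biopython 1.88 were used for the rest.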

Additional observations from a re-analysis of the deposited data

How the results depend on the processing

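The count of called alpha-defensin rows was 10 in gastric against duodenal cells and 12 in gastric against colonic cells under every alternative fit, including the replicate block and each array left out, and 8 and 10 when at least 2-fold was required. In duodenal against colonic cells the count was 8, between 6 and 8 with each array left out, and 4 at least 2-fold. With the replicate number as a block it was again 10, 12 and 8; deviations of same-numbered arrays correlated at -0.014 to 0.013, and the arrays are taken to share only a number. Of the alternative values of single alpha-defensin rows, 533 kept direction and call, 6 lost the call (DEFCR5 and DEFCR20 in duodenal against colonic cells, each with an array left out), and DEFCR-RS10 in gastric against duodenal cells, at background in both, changed sign to 0.0066 without duodenal replicate 1 (lowest -0.063 without duodenal replicate 3). Slc10a2, also at background, changed sign to 0.017 in that comparison without duodenal replicate 2 (lowest -0.052 without duodenal replicate 1). With the 99th percentile as the background limit, the at-least ratios against colonic cells became 99.5-fold for DEFCR-RS7, 46.5-fold for DEFCR-RS10, 4.19-fold for DEFCR-RS12 and 1.003-fold for DEFA-PS1, by construction of the limit. Background limits the gastric values of DEFCR4. Repeated quantile normalization and median centring could hardly change any result, because the arrays already shared nearly the same distribution. Leaving out dim rows kept those above the limit on at least 2 arrays. DEFCR-RS7, DEFCR-RS10 and DEFCR-RS12 would not have passed that filter without their colonic arrays, so it is no check on them.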
